A study of Mus musculus with 2 samples.

Results

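The E2F family and its DP partners were described here as 10 genes, chosen by name as the 8 E2F genes E2f1 to E2f8 and the DP genes Tfdp1 and Tfdp2, out of 43346 annotated genes in the deposited tables. All 10 were found in both libraries.

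The study held 1 group, primary megakaryocyte-erythroid progenitors (MEP) of the strain C57BL/6J, taken from adult males aged 5 to 6 weeks, with 2 libraries labelled biological replicates 1 and 2. Each library was made from total RNA longer than 200 bases of a pool of 100 cells, with spike-in RNAs added. The labels gave no treatment or genotype change and no other cell type, so there was no contrast between groups and no test. Both libraries carried the same donor record and separate biosample records. Technical and biological parts of the spread between them cannot be told apart.

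E2F proteins are transcription factors that switch genes of DNA replication and division on and off as a cell passes from G1 into S phase. E2F1 to E2F6 bind DNA as heterodimers with a DP protein, and the retinoblastoma family of pocket proteins binds E2F1 to E2F5 and blocks activation until cyclin-dependent kinases phosphorylate the pocket protein. E2F7 and E2F8 carry duplicated DNA-binding domains, need no DP protein and repress. In mice, loss of E2f4 impairs fetal erythropoiesis, and E2f2 and E2f8 have been tied to terminal red cell production.

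Replicate 1 totalled 30016974 expected counts, 13518448 of them on protein-coding nuclear genes, and replicate 2 totalled 51510347 and 25799923. The members together held 17347 counts in replicate 1 and 38948 in replicate 2. All 10 erythroid markers were at 10 TPM or more in both libraries, where TPM (transcript abundance scaled to a fixed total) is a level per length. Of 10 megakaryocyte markers, 1, Itga2b, reached that level, and Ppbp and Gp6 had 0 counts in both. Markers of other cells were present too. For 10 T and NK cell markers the summed TPM was 56.0 in replicate 1 and 41.0 in replicate 2. Of these 10, 6 reached 1 TPM in both libraries, and 2 were over 2-fold higher in replicate 1. The part of such cells in the members' levels was not tested. The libraries stood apart in granulocyte-monocyte and B cell markers. The summed TPM of 12 granulocyte-monocyte markers was 1889 in replicate 1 and 8.22 in replicate 2, where 7 of the 12 had 0 counts. The summed TPM of 10 B cell markers was 10.02 in replicate 1 and 157 in replicate 2, and all 10 were over 2-fold higher in replicate 2.

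Every member was detected, and E2f4, the E2F that works with the pocket proteins p107 and p130 as a repressor in resting cells, had the highest level of the 10. E2f4 had 131.93 TPM (replicate 1) and 153.86 TPM (replicate 2), or 142.9 ± 15.5 (SD, n = 2), which placed it at rank 348 among 21461 protein-coding nuclear genes. Tfdp1, which encodes the main DP partner DP1, followed at 107 ± 6.01 TPM, and the repressor E2f8 was at 60.9 ± 22.3 TPM. The 3 activators E2f1, E2f2 and E2f3 lay between 6.30 and 11.4 TPM. All 10 members reached 1 TPM in both libraries, against 44.2% of protein-coding nuclear genes. Of the 10, 6 reached 10 TPM in both (E2f1, E2f4, E2f6, E2f8, Tfdp1 and Tfdp2), against 24.7% of protein-coding nuclear genes. The members' median level was 14.5 TPM in replicate 1 and 18.6 in replicate 2, against 0.38 and 0.36 TPM over protein-coding nuclear genes. In pools of cells, fewer cells expressing a gene and less RNA per cell cannot be told apart.

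**Figure D1:**
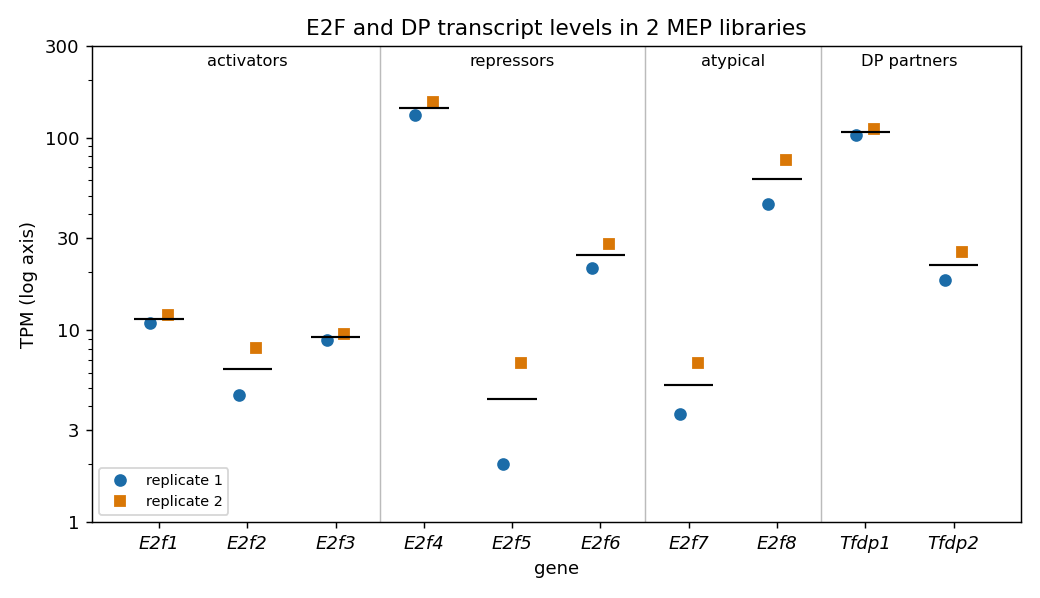
Deposited TPM on a log axis of the 10 members, grouped by role, with a point for each library and a line at the mean. E2f4, Tfdp1 and E2f8 lie highest, and E2f5, at 2.02 and 6.70 TPM, has the widest relative gap between its points.

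The order of the 10 levels was the same in both libraries: E2f4, Tfdp1, E2f8, E2f6, Tfdp2, E2f1, E2f3, E2f2, E2f7 and E2f5, from high to low. Of the 9 neighbouring pairs in that order, 6 had ranges that did not overlap. The ranges overlapped for E2f6 and Tfdp2, for E2f2 and E2f7, and for E2f7 and E2f5, so the order within those pairs was not larger than the spread between libraries.

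Sequences are shown for the promoters of 4 members and for a transcript junction of E2f5, because the first carry or lack the letters E2F proteins are known to bind and the second separates the transcripts that differed most between the libraries. RefSeq promoter windows of 300 bases on GRCm38.p6, from 250 bases before to 50 after the annotated start, were matched by symbol for 8 of the 10 members. E2f4 and E2f5 had none. The E2F words searched on both strands were TTTCCCGC, TTTCGCGC, TTTGCCGC and TTTGGCGC, and a shorter 7-letter word, TTGGCGC, overlaps the last of them. Capitals mark these words, or their reverse complements, in the windows below, all written 5′ to 3′ on the strand of the gene.

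E2f2 (chr4:136172024-136172323, + strand): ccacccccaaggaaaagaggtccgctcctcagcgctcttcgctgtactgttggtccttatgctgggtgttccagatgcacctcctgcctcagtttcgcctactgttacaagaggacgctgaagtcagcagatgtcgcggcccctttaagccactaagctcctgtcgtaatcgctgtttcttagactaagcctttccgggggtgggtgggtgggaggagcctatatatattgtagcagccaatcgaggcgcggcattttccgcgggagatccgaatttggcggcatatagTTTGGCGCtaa

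E2f3 (chr13:29986014-29986313, - strand): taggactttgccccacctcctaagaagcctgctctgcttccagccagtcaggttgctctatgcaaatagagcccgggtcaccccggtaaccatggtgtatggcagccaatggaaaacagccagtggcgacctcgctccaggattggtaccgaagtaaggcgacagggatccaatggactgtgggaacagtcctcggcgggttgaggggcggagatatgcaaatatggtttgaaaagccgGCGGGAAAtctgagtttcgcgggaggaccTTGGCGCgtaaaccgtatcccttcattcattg

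E2f8 (chr7:48881547-48881846, - strand): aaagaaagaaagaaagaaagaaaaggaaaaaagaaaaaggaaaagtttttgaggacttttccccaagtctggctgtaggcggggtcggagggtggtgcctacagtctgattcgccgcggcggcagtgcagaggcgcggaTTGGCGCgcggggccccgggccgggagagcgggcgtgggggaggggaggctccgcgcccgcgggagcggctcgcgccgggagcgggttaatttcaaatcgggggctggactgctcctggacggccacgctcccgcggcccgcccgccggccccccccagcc

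Tfdp1 (chr8:13338501-13338800, + strand): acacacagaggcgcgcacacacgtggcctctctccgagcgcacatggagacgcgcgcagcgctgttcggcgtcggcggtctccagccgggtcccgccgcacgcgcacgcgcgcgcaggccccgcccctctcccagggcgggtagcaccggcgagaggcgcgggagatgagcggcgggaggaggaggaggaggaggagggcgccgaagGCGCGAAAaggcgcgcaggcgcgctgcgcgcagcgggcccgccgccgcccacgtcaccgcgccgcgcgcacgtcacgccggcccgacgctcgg

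An 8-letter E2F word was present in the windows of 4 of the 8 members, E2f2, E2f3, E2f7 and Tfdp1, against 3.34% of protein-coding nuclear genes with a window (545 of 16317) and 2.26% of all 32851 windows. In E2f2, an activator, the word began 39 bases after the RefSeq start site, which lies 120 bases before the start of the GENCODE gene and of E2f2-201, so the word lies upstream of the transcript quantified here. In E2f3, another activator, it began 11 bases before the start, and TTGGCGC followed 18 bases after the start. A second RefSeq window of E2f3, on a start 1672 bases inside the gene, held neither word. Tfdp1 held an 8-letter word 43 bases before the RefSeq start printed above, and a second, overlapping window held the same word 96 bases before its start. Tfdp1-201, the transcript quantified here, begins at chr8:13339674, downstream of the printed window. In E2f7 the word began 198 bases before the start and the shorter word 92 bases before it. The E2f8 window held no 8-letter word and had TTGGCGC 111 bases before its start. The shorter word was in 4 of the 8 members and in 3.77% of protein-coding nuclear genes. The RefSeq windows of E2f1, E2f6 and Tfdp2 held neither word. The E2f1 window was centred on a start that lies 466 bases inside the GENCODE gene, and the Tfdp2 windows were placed on starts 62430 and 62973 bases inside that gene, so none of them covers the outermost annotated start. These matches describe letters in the reference and say nothing of binding in these cells.

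The activators E2f1, E2f2 and E2f3, which drive entry into S phase when released from pocket proteins, were below E2f4 and E2f8 in both libraries. By mean TPM they lay above 74.9% (E2f1), 67.0% (E2f2) and 72.0% (E2f3) of protein-coding nuclear genes. E2f1 (ENSMUSG00000027490.13, chr2:154559407-154569892, - strand, mm10) had 10.82 TPM in replicate 1 and 11.90 in replicate 2, from 619 and 1181 expected counts. E2f3 (ENSMUSG00000016477.13, chr13:29906575-29986063, - strand) was at 8.89 and 9.56 TPM in replicates 1 and 2. Both genes were close between the libraries. The exact 95% interval of the replicate 2 to replicate 1 ratio of TPM, which covers counting error only, was 0.997 to 1.21 for E2f1 and 0.990 to 1.17 for E2f3. E2f2 (ENSMUSG00000018983.9, chr4:136172394-136196057, + strand) had 4.59 TPM in replicate 1 and 8.01 in replicate 2, a ratio of 1.75 (1.57 to 1.94). It was the activator with the larger gap, and its 464 and 1415 expected counts made that gap wider than counting error.

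Among the repressors that pair with DP, E2f4 stood well above E2f6 and E2f5. E2f4 (ENSMUSG00000014859.8, chr8:105297663-105305370, + strand) rested on 5380 counts in replicate 1 and 10851 in replicate 2, and its ratio was 1.17 (1.13 to 1.21). E2f6 (ENSMUSG00000057469.7, chr12:16810963-16839742, + strand), which lacks the pocket-binding region and works in a Polycomb complex, was at 20.97 and 27.89 TPM in replicates 1 and 2 (24.4 ± 4.89, n = 2). E2f5 (ENSMUSG00000027552.10, chr3:14578641-14606309, + strand), the close relative of E2f4, had 73 counts and 2.02 TPM in replicate 1 and 410 counts and 6.70 TPM in replicate 2. E2f5 was thus the lowest member in each library, with the largest relative gap between them. E2f4 was 65.3 times E2f5 in TPM in replicate 1 and 23.0 times in replicate 2. The 3′ end of E2f5 overlaps 26 bases of 1810022K09Rik on the opposite strand, a gene at 136 and 150 TPM in replicates 1 and 2, and no source used here says whether the counting used strand.

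The atypical repressors were far apart in level. E2f8 (ENSMUSG00000046179.13, chr7:48866429-48881596, - strand) had 45.10 TPM in replicate 1 and 76.64 in replicate 2, from 3193 and 9642 counts. E2f7 (ENSMUSG00000020185.12, chr10:110745439-110787384, + strand), which shares its repressor role, was at 3.65 and 6.75 TPM in replicates 1 and 2. E2f8 therefore exceeded E2f7 12.4-fold in replicate 1 and 11.4-fold in replicate 2. Both were higher in replicate 2, with ratios of 1.70 (1.63 to 1.77) for E2f8 and 1.85 (1.62 to 2.11) for E2f7. E2f8 also exceeded the summed TPM of the 3 activators, 1.86-fold in replicate 1 and 2.60-fold in replicate 2. A noncoding gene on the opposite strand, Gm2788, overlaps 3639 bases of E2f8, and it had 0 counts in replicate 1 and 60 in replicate 2. An E2f8 transcript matches Gm2788 at 100% identity over 339 bases, and no source used here says whether the counting used strand. The E2f8 level is thus uncertain to the extent that reads are shared.

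Of the DP genes, Tfdp1 exceeded Tfdp2 in both libraries. Tfdp1 (ENSMUSG00000038482.10, chr8:13338751-13378448, + strand) had 102.90 TPM in replicate 1 and 111.40 in replicate 2, and Tfdp2 (ENSMUSG00000032411.11, chr9:96196275-96323646, + strand), which encodes DP2, was at 18.17 and 25.38 TPM in replicates 1 and 2. The Tfdp1 to Tfdp2 ratio of TPM was 5.66 in replicate 1 and 4.39 in replicate 2 (5.03 ± 0.901, n = 2). Not corrected for length, as CPM (counts scaled by library size), this ratio was 1.81; Tfdp2-201, the leading Tfdp2 transcript, has 7354 bases, and the Tfdp1 transcript has 1700 bases. A processed pseudogene, Gm7390, matches the Tfdp1 transcript at 97.6% identity over 1230 bases and was not analysed here, so the Tfdp1 level is uncertain to the extent that reads are shared.

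As a pool, the 8 E2F genes summed to 228 TPM in replicate 1 and 301 in replicate 2, and E2f4 was the largest part. E2f4 made up 57.9% of the sum in replicate 1 and 51.1% in replicate 2, E2f8 made up 19.8% and 25.4%, and E2f6 9.20% and 9.26%. The 3 activators together were 10.7% of E2F TPM in replicate 1 and 9.78% in replicate 2 (10.2 ± 0.621%, n = 2). E2f4, E2f5 and E2f6 together were 68.0% and 62.5% in replicates 1 and 2, and E2f7 and E2f8 together were 21.4% and 27.7%, so the shares of the classes kept their order in both libraries. The DP-dependent E2Fs, E2f1 to E2f6, summed to 1.48 times the DP genes in replicate 1 and 1.59 times in replicate 2 (1.54 ± 0.0798, n = 2). These are shares of transcripts, not of protein.

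**Figure D2:**
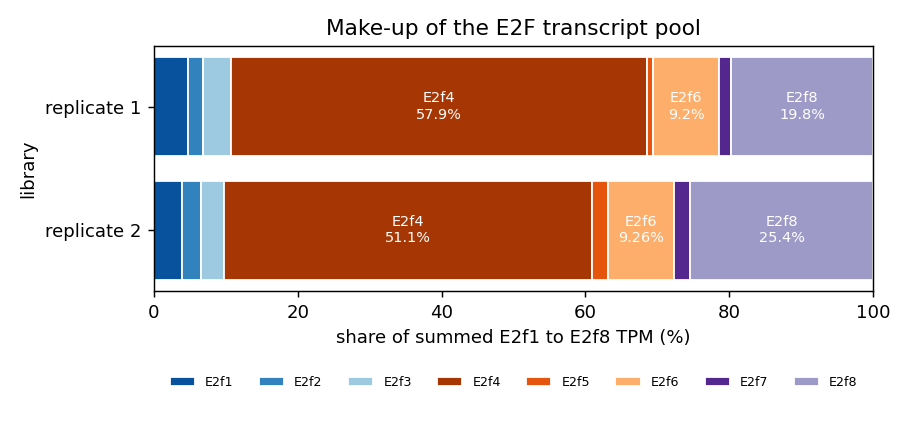
Share of the summed TPM of E2f1 to E2f8 held by each gene, as bars from 0 to 100% for each library. E2f4 takes 57.9% in replicate 1 and 51.1% in replicate 2, and the 3 activators at the left take 10.7% and 9.78%.

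Between the libraries, all 10 members were higher in replicate 2 on the log2(TPM + 1) scale, against 66.1% of the 11438 genes with a mean TPM of at least 1. The median difference, replicate 2 minus replicate 1, was 0.43 over the members and 0.18 over all these genes, whose SD was 0.80. Relative to that shift of 0.18, 7 members lay above and E2f1, E2f3 and Tfdp1 below. With CPM scaled by TMM factors, where the median of all genes was 0.01, 7 of the 10 were higher in replicate 2, and the differences of E2f1 (-0.05), E2f3 (-0.13) and Tfdp1 (-0.08) changed sign.

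Of the members, 1 passed 2-fold, E2f5 with a log2 difference of 1.35 and a TPM ratio of 3.32 (2.58 to 4.32). Past 2-fold and higher in replicate 2 were 6.9% of the 11438 genes, and 4.33% were past 2-fold and higher in replicate 1. The E2f5 difference lay at percentile 96.4 of all genes. Among protein-coding genes of like depth, 4873 genes with 100 to 1000 counts, the SD of the difference was 0.61. E2f8, E2f7 and E2f2 came next with log2 differences of 0.75, 0.74 and 0.69, at percentiles 87.7, 87.2 and 85.7, and Tfdp2 and E2f6 followed with 0.46 and 0.40. E2f4 was at 0.22, and E2f1, Tfdp1 and E2f3 were at 0.13, 0.11 and 0.09. The granulocyte-monocyte and B cell markers moved with the same split of libraries, at 1889 against 8.22 and 10.02 against 157 summed TPM in replicates 1 and 2, and their part in these differences was not tested.

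**Figure D3:**
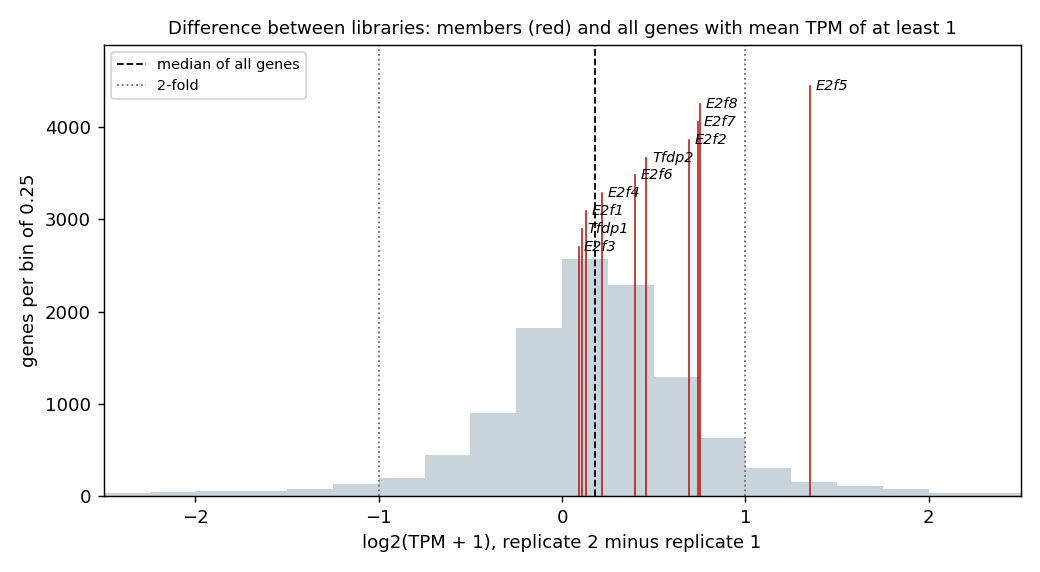
Histogram of the log2(TPM + 1) difference, replicate 2 minus replicate 1, over the 11438 genes at 1 TPM or more on average, drawn between -2.5 and 2.5, with the members as red lines whose heights carry no value. All 10 members lie right of 0, and E2f5 at 1.35 lies past the dotted 2-fold line.

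Transcripts of the members were estimated by the authors for 40 annotated transcripts, of which 12 were at 0 TPM in both libraries. E2f4, E2f6 and Tfdp1 had 1 annotated transcript each. Of the 7 members with several, 5 had the same most abundant transcript in both libraries and 2, E2f5 and E2f8, did not. Over 5967 genes with several transcripts and at least 5 TPM on average, the most abundant transcript differed in 27.7%. E2f5 does not reach that level, and among the 6 members that do, 1, E2f8, differed.

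All of the E2f5 level was assigned to E2f5-201 in replicate 1 and to E2f5-202 in replicate 2. Each transcript has 8 exons, their 5′ ends lie 30 bases apart, and they encode 335 and 336 residues. Across the junction of exons 3 and 4 they differ by 3 bases at the start of exon 4. The junctions below run from chr3:14588290-14588301 into the + strand bases that begin at 14601003 in E2f5-201 and at 14601000 in E2f5-202, with the 3 extra bases in capitals.

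E2f5-201: cattaataacagattttcttatgt

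E2f5-202: cattaataacagTACattttcttatgt

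In the authors' posterior mean estimates the split was less complete. E2f5-201 had 82.0% of the E2f5 level in replicate 1 and 12.7% in replicate 2, and E2f5-202 had 18.0% and 87.3%. The assignment in replicate 1 rested on 73 counts over a transcript of 1779 bases.

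The E2f8 transcripts with the highest shares encode the same 860 residues and differ in their first exons, whose starts lie 555 bases apart. E2f8-202, which starts at the RefSeq start printed above, had 50.1% of the E2f8 level in replicate 1 and 43.2% in replicate 2, and E2f8-201 had 36.6% and 48.8%. The shares were thus closer to each other in replicate 2 than in replicate 1, and which was larger changed. Transcripts annotated as retained introns held 13.3% and 8.01% of the E2f8 level in replicates 1 and 2.

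The E2f1 transcripts have overlapping first exons whose starts lie 172 bases apart. E2f1-202, with 430 residues, had 63.4% of the E2f1 level in replicate 1 and 85.3% in replicate 2, and E2f1-201, with 385 residues, had the rest. E2f2-201 held 100% of E2f2 in both libraries, and E2f3-201 held 100% of E2f3 in replicate 1 and 95.7% in replicate 2. The rest of E2f3 in replicate 2 was 1 count on E2f3-202, a noncoding transcript of 216 bases. E2f3-201 was the only coding transcript of E2f3 quantified, so a coding transcript from another start could not be seen apart from it.

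Coding transcripts of E2f7 held 70.7% of its level in replicate 1 and 70.5% in replicate 2. Its leading transcript, E2f7-201 with 904 residues, held 52.4% and 51.5%, and the noncoding remainder lay on other transcripts in each library. It was 22.5% on E2f7-208 and 6.73% on E2f7-203 in replicate 1, and 23.2% on E2f7-202 and 6.33% on E2f7-207 in replicate 2. These shares rested on few expected counts, 37.8 and 1.63 in replicate 1 and 39.02 and 5.53 in replicate 2, in the same order. Tfdp2 had 16 annotated transcripts, of which 6 were above 0 in replicate 1 and 7 in replicate 2. Tfdp2-201 led with 53.1% and 42.7% of the Tfdp2 level in replicates 1 and 2, and Tfdp2-211, which starts 62455 bases downstream of it, held 17.2% and 21.5%.

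**Figure D4:**
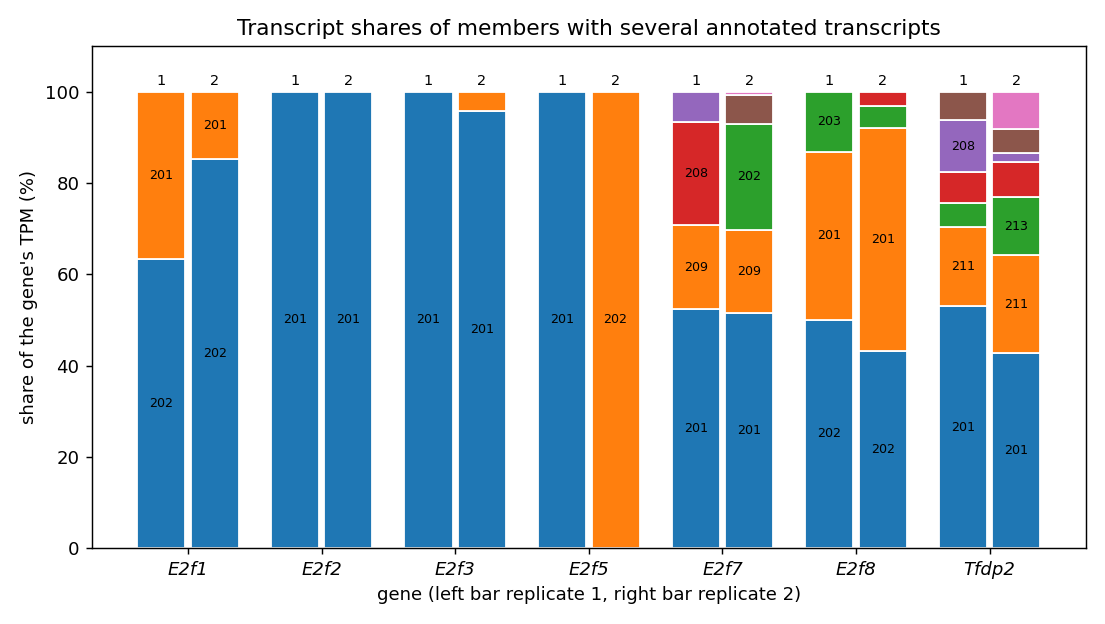
Share of each gene's TPM held by each annotated transcript, for the 7 members with several, as stacked bars from 0 to 100% with replicate 1 left and replicate 2 right; numbers in the bars are transcript name endings of shares of at least 10%, and a colour has meaning within 1 gene only. E2f5 changes from 201 to 202, and E2f7-201 stays at 52.4% and 51.5%.

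The proteins that restrain and release the E2Fs were all transcribed. The pocket protein genes were at 31.4 and 28.8 TPM for Rbl1 (p107), 20.0 and 29.2 TPM for Rb1 and 15.1 and 31.0 TPM for Rbl2 (p130) in replicates 1 and 2. E2f1 to E2f5, the E2Fs that bind them, summed to 2.38 times the pocket protein TPM in replicate 1 and 2.13 times in replicate 2. The activators alone summed to 0.365 and 0.331 times it. E2f4 was the largest part of the E2f1 to E2f5 sum, which came to 158 TPM in replicate 1 and 190.03 in replicate 2.

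Of 8 genes for G1 cyclins and kinases, which phosphorylate pocket proteins, 7 were at 10 TPM or more in both libraries, and the list's median was 34.7 TPM in replicate 1 and 48.3 in replicate 2. Cdk4 was at 270 and 357 TPM, Cdk6 at 80.9 and 81.7 TPM, Ccnd3 at 65.2 and 79.8 TPM and Ccne1 at 46.0 and 60.5 TPM in replicates 1 and 2. The lowest was Ccnd1 at 1.63 and 1.77 TPM. The D-type cyclin of highest level was thus Ccnd3 in both libraries.

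The 4 genes whose products bind or degrade E2Fs in S and G2 were all at 10 TPM or more. Ccna2, cyclin A2, whose kinase complex ends DNA binding by E2F1 and DP1, was at 68.7 and 94.6 TPM in replicates 1 and 2. The ubiquitin ligase genes Fzr1, Ccnf and Skp2 lay between 13.6 and 17.6 TPM as means of both libraries.

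Of 9 genes of the MuvB core, its DREAM kinase and its partners, which carry E2F4 with p107 or p130 in resting cells and the MYB or FOXM1 factors in dividing cells, 6 were at 10 TPM or more in both libraries. The highest were Rbbp4 at 68.9 TPM, Foxm1 at 26.8 TPM, Mybl2 at 25.5 TPM and Lin37 at 23.4 TPM as means of both libraries. Mybl1 was the lowest and the 1 gene of this list past 2-fold, with 0.36 TPM in replicate 1 and 2.72 in replicate 2. Both the factors of the dividing-cell form and the core subunits were thus present.

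Of 12 genes of the E2F6 complex PRC1.6, 9 were at 10 TPM or more in both libraries and all 12 at 1 TPM or more. Cbx3, a heterochromatin protein gene, was highest at 127 TPM, followed by Hdac2 (72.4 TPM), Hdac1 (62.8 TPM) and Max (40.8 TPM), and Ring1 was lowest at 8.13 TPM, all as means. Of the germline genes that E2F6 is known to silence, 0 of 12 reached 10 TPM in both libraries, against 24.7% of protein-coding nuclear genes, and 8 had 0 counts in both, against 39.9% of them. A count of 0 allows up to 3 counts per library. Stag3 was the exception at 5.49 and 7.36 TPM in replicates 1 and 2, and Ddx4 was at 0.69 and 2.06 TPM. Dazl had 18 counts in replicate 1 and 0 in replicate 2, and Sycp3 had 0 in replicate 1 and 19 in replicate 2.

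All 6 genes of E2F coactivators were at 10 TPM or more in both libraries. Hcfc1 was highest at 66.1 and 79.5 TPM in replicates 1 and 2, followed by Trrap, Ep300 and Kat2a, and Kat5 was lowest at 10.99 and 13.9 TPM.

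Genes that E2Fs are known to regulate at the G1/S boundary were high as a list. Of 32 such genes, 31 were at 10 TPM or more in both libraries, next to the 24.7% of protein-coding nuclear genes given above, and the list's median was 49.3 TPM in replicate 1 and 50.5 in replicate 2. Pcna, which encodes the replication clamp, was at 299 and 352 TPM in replicates 1 and 2, and the helicase genes Mcm3, Mcm7 and Mcm6 were at 205, 156 and 137 TPM as means. None of the 32 passed 2-fold between the libraries, and their median log2 difference was 0.17, next to 0.18 over all genes. The median of this list was 2.03 times the summed activator TPM in replicate 1 and 1.71 times in replicate 2.

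Of the 15 G2/M genes, which the MuvB complexes regulate through the CHR element, 13 were at 10 TPM or more in both libraries, and the list's median was 36.8 TPM in replicate 1 and 41.3 in replicate 2. Top2a was highest at 162 TPM, followed by Ube2c, Birc5 and Aurkb, and Cdc25c, a phosphatase gene, was lowest at 3.96 and 9.73 TPM in replicates 1 and 2. Cdc25c was also the 1 gene of the list past 2-fold.

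The lists tied to other E2F functions had smaller shares of genes at 10 TPM or more. Of 10 apoptosis genes that E2F1 is known to induce, 3 were at 10 TPM or more in both libraries, near the 24.7% of protein-coding nuclear genes. Of these 3, Apaf1 was at 18.2 TPM and Casp8 at 14.1 TPM as means. Bcl2l11 was at 9.31 and 14.6 TPM in replicates 1 and 2, and Pmaip1, Trp73 and Hrk had 0 counts in both libraries. Of 8 multiciliation genes tied to E2F4 and E2F5 in airway cells, 4 had 0 counts in both libraries, next to the 39.9% given above. The 2 at 1 TPM or more in both were Rfx2 and Rfx3, means 8.81 and 4.09 TPM. Foxj1 and Ccno each had 0 counts in 1 library.

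**Figure D5:**
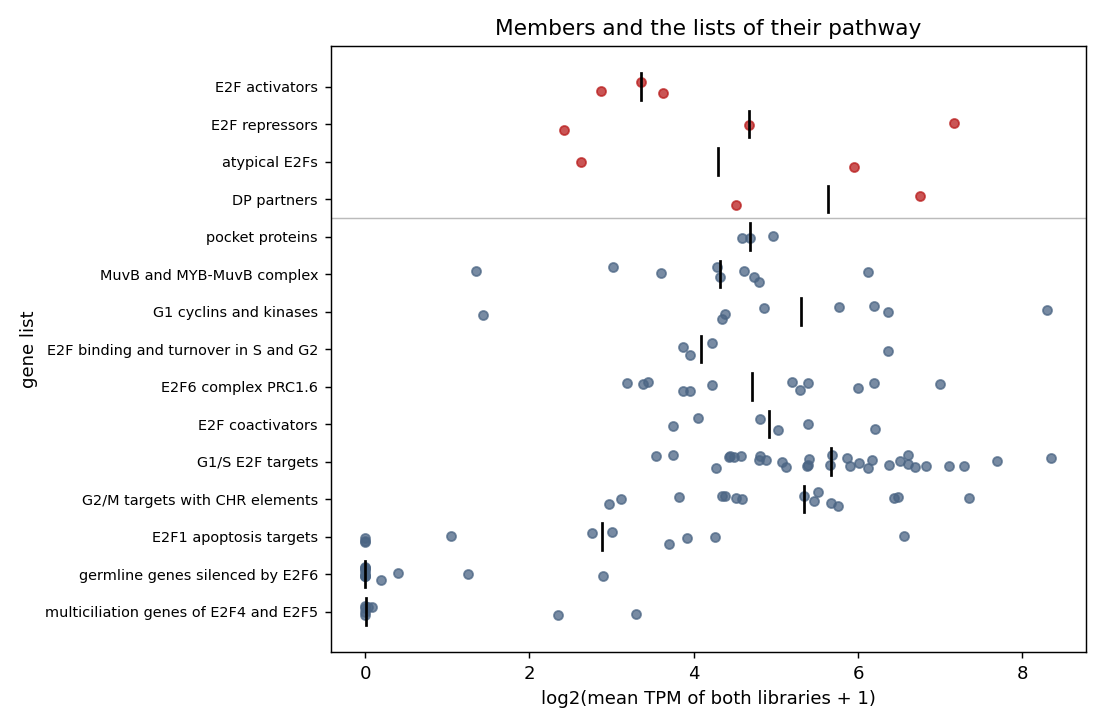
Level of each gene as log2(mean TPM of both libraries + 1), by list, with members in red above the line and their pathway in blue, and a black bar at each list's median; vertical scatter within a list carries no value. The G1/S list lies high, with 31 of 32 genes at 10 TPM or more, and the germline and multiciliation lists lie near 0.

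The E2F words were compared between the members' windows and those of their targets. Of 28 G1/S genes with a RefSeq window, 14 held an 8-letter word, the same share as the members' 4 of 8, against 1 of 12 G2/M genes (8.33%), 2 of 11 germline genes and 0 of 6 apoptosis genes. The CHR word TTTGAA, on either strand, was in 8 of 12 G2/M genes (66.7%), 3 of 8 members (E2f3, E2f8 and a second, downstream window of E2f2), 6 of 28 G1/S genes and 17.5% of protein-coding nuclear genes. Mcm3, Mcm6 and Mcm7 held an E2F word, and Pcna did not. The G1/S genes were listed as known E2F targets and the G2/M genes as targets with CHR elements. High shares of these words in those lists were thus set by the choice of genes and are no test.

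Genes with an E2F word were higher in these libraries than genes without one. The 545 protein-coding nuclear genes with a word had median levels of 11.03 TPM in replicate 1 and 11.95 in replicate 2, against 0.59 and 0.55 TPM for the 15772 without, and 51.4% and 25.6% of these sets were at 10 TPM or more in both libraries. With the genes of all lists left out, those with a word had medians of 10.7 and 11.6 TPM. The windows differed in base composition too: the median GC content was 62.3% with a word and 57.0% without, and its part in the difference was not tested. Within the G1/S list, the median was 56.2 TPM in replicate 1 and 52.1 in replicate 2 with a word, and 53.1 and 54.9 TPM without, so the medians had opposite orders in the libraries.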

How the data were processed

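Total RNA was sequenced in 2 MEP libraries. Per the file headers and README, the authors quantified genes and transcripts on mm10 with GENCODE M4; no source used here names the aligner, the quantifier or the strand setting. Expected counts as deposited are estimates that need not be whole, and the deposited TPM is scaled by effective length over all features, ribosomal RNA included, which lowers the TPM of other genes. The authors also gave each transcript's percent of its gene's TPM. The deposited FPKM, the deposited score (posterior SD of the count) and the deposited signal columns (credibility bounds) were not used.

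Names and coordinates came from GENCODE M21 by identifier, matched for 42462 of 43346 genes. Transcripts of members had the same length in M21 for 36 of 40. Levels were compared as TPM, and libraries as log2(TPM + 1), replicate 2 minus replicate 1, over genes at 1 TPM or more on average, with exact Clopper-Pearson 95% intervals from rounded counts. The 2-fold call was run on simulated data that held counting error only. Of 200 genes changed 4-fold, 200 were called in the right direction, and 5 of 10937 unchanged genes were called. Without other spread between libraries, the simulation gives no error rate for the real calls. Alternatives used TMM factors (edgeR 4.0.16, R 4.3.3), DESeq2 1.42.0 size factors, posterior means, rescaling over protein-coding nuclear genes and each library alone. Sequence similarity used blastn 2.17.0, and tables used Python 3.11.15 with pandas 2.3.3, numpy 2.4.6 and scipy 1.17.1.

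All members were named. Of each pathway list, the rule named up to the 4 highest genes and the lowest by mean TPM, all genes of lists of 4 or fewer, and those past 2-fold with mean TPM of at least 5. Some genes that the rule names are not reported here. The members and lists were chosen with earlier results of these data known. With 1 group of 2 libraries, no p-value was computed.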

Additional observations from a re-analysis of the deposited data

How the results depend on the processing

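The counts of members at 1 and 10 TPM, of G1/S genes at 10 TPM and of members past 2-fold stayed within 1.5 times their value under every alternative run for them. Not corrected for length, as CPM, the Tfdp1 to Tfdp2 ratio was 1.81, the activator share 15.6% and the E2F to DP ratio 1.64. Of the 5 members with several protein-coding transcripts, 3 kept the most abundant one when noncoding transcripts were left out, fewer members being compared. With the words TTTCGCGC and TTTGGCGC alone, 2 members held a word. Rescaling over protein-coding nuclear genes multiplied all TPM by 2.49 in replicate 1 and 2.20 in replicate 2, and 8 members then reached 10 TPM in both. The E2f5 log2 difference ranged over 1.22 with TMM or DESeq2 scaling, 1.32 with posterior means and 1.68 with a pseudocount of 0.1. No paired analysis was possible because there was 1 group. Low counts limit E2f5 most, and 2 libraries of 100 cells limit every SD.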
